A study of Ictidomys tridecemlineatus with 15 samples.

Results

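The 107 units described here were transcribed higher in every summer active (SA) liver than in any winter liver of the 13-lined ground squirrel, a small hibernating rodent. A unit is the body of an annotated gene, which the authors extended at its 3′ end where their own run-on reads reached further. Of the 6324 units of the table, 4705 carry a single gene name. The 107 units make up 2.27% of those 4705. They were selected on their measured values. The lowest of the 3 SA values had to exceed the highest of the 11 winter values, and the SA mean had to exceed the mean of the 4 winter state means by at least 1 on the log2(CPM + 1) scale. CPM are the counts of a unit over those of all units in the same library, scaled to a total of 1000000. Without the minimum difference, 169 single-gene units (3.59%) had every SA library above every winter library. As these values chose the units, the differences between SA and winter are given below as a description with no test, and tests are kept to the winter states. The rule also used the winter values, through their highest value and their mean, so the winter tests are not independent of the selection either.

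Nascent transcription was measured by global run-on sequencing (GRO-seq) in frozen livers of 14 laboratory-housed female squirrels from a breeding colony, all implanted with temperature recorders and given no drug or genetic change that the labels name. The 3 SA animals were warm, in the part of the year before hibernation. The winter animals were sampled once rewarmed between bouts of torpor (interbout aroused, IBA, 3 animals), while cooling into torpor (entrance, Ent, 3 animals), early in a bout of torpor (ET, 3 animals) and late in one (LT, 2 animals). GRO-seq labels the RNA that polymerases already engaged on the DNA extend in isolated nuclei, so that a level is a share of the run-on reads of a library and not an amount of RNA. The run-on was done at the same warm temperature for every state, so a level in ET or LT is not the rate of transcription in a cold animal.

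In summer the animals feed and lay down fat, and the liver turns dietary sugar and amino acids into fatty acids, glucose and urea. In winter they fast for months, live on stored fat, and alternate between cold torpor and short rewarmed arousals. IBA and SA livers are both warm, but only the SA animals are in the feeding season. The step from SA to IBA therefore compares seasons in warm animals. It also carries the torpor before IBA, since those animals had rewarmed only hours earlier. The step from IBA to LT compares a warm with a cold body within winter. Both steps also carry differences between collection seasons.

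The libraries held 3713883 to 8884763 counts. The SA libraries came from 2 collection seasons (replicate 1 from the first, replicates 2 and 3 from the third), the ET libraries from a season of their own, the LT libraries from the first and the IBA libraries from the third. ET and its season cannot be told apart. The step from IBA to LT is also a step from the third to the first season, and body temperature and season can be separated there only by a fit that takes season from the SA and Ent libraries. Of 10 hepatocyte markers, 7 had a single-gene unit, and their summed level was 9941 to 20315 CPM in SA, 10341 to 13289 in IBA, 9417 to 10404 in Ent, 4990 to 6884 in ET and 5591 to 7652 in LT. It was thus lower in every ET and LT library than in any warm one. Cps1, a urea cycle gene, made up a large part of the sum, with a mean of 7171 CPM (SD 5593) in SA, 2803 in IBA, 1865 in Ent, 1135 in ET and 1078 in LT. The 4 endothelial markers with a unit summed to 199 to 252 CPM in SA, 219 to 253 in IBA, 235 to 260 in Ent, 144 to 222 in ET and 151 to 172 in LT, and the 2 cholangiocyte markers to 86 to 105 in SA, 114 to 146 in IBA, 125 to 154 in Ent, 107 to 134 in ET and 93.7 to 108 in LT. No marker is among the 107 units, and none of the markers chosen for Kupffer, stellate, lymphoid or erythroid cells had a single-gene unit, so these cells were not measured. In whole liver, fewer cells of a type and less transcription per cell cannot be told apart. The part of these shifts in the results below was not tested.

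The difference between SA and the winter mean ranged from 1.01 to 6.64 on the log2(CPM + 1) scale, with a median of 1.63. It reached 2 in 32 units, 3 in 11 and 4 in 5. Together the 107 units took 2.85% to 3.10% of the counts in the SA libraries, 1.14% to 1.39% in IBA, 0.995% to 1.21% in Ent, 0.687% to 0.964% in ET and 0.635% to 0.726% in LT. IBA was the highest winter state for 78 of them, Ent for 15, ET for 8 and LT for 6, whereas LT was the lowest for 58, ET for 31, Ent for 11 and IBA for 7. Over all single-gene units, 35.7% were highest in IBA among the winter states, 14.2% in Ent, 25.1% in ET and 25% in LT. For the lowest state, shares over all units are not given here. The rule's winter mean includes all 4 winter states, so these orders are not independent of the selection. The plot of all 107 units by library shows these orders library by library.

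**Figure D1:**
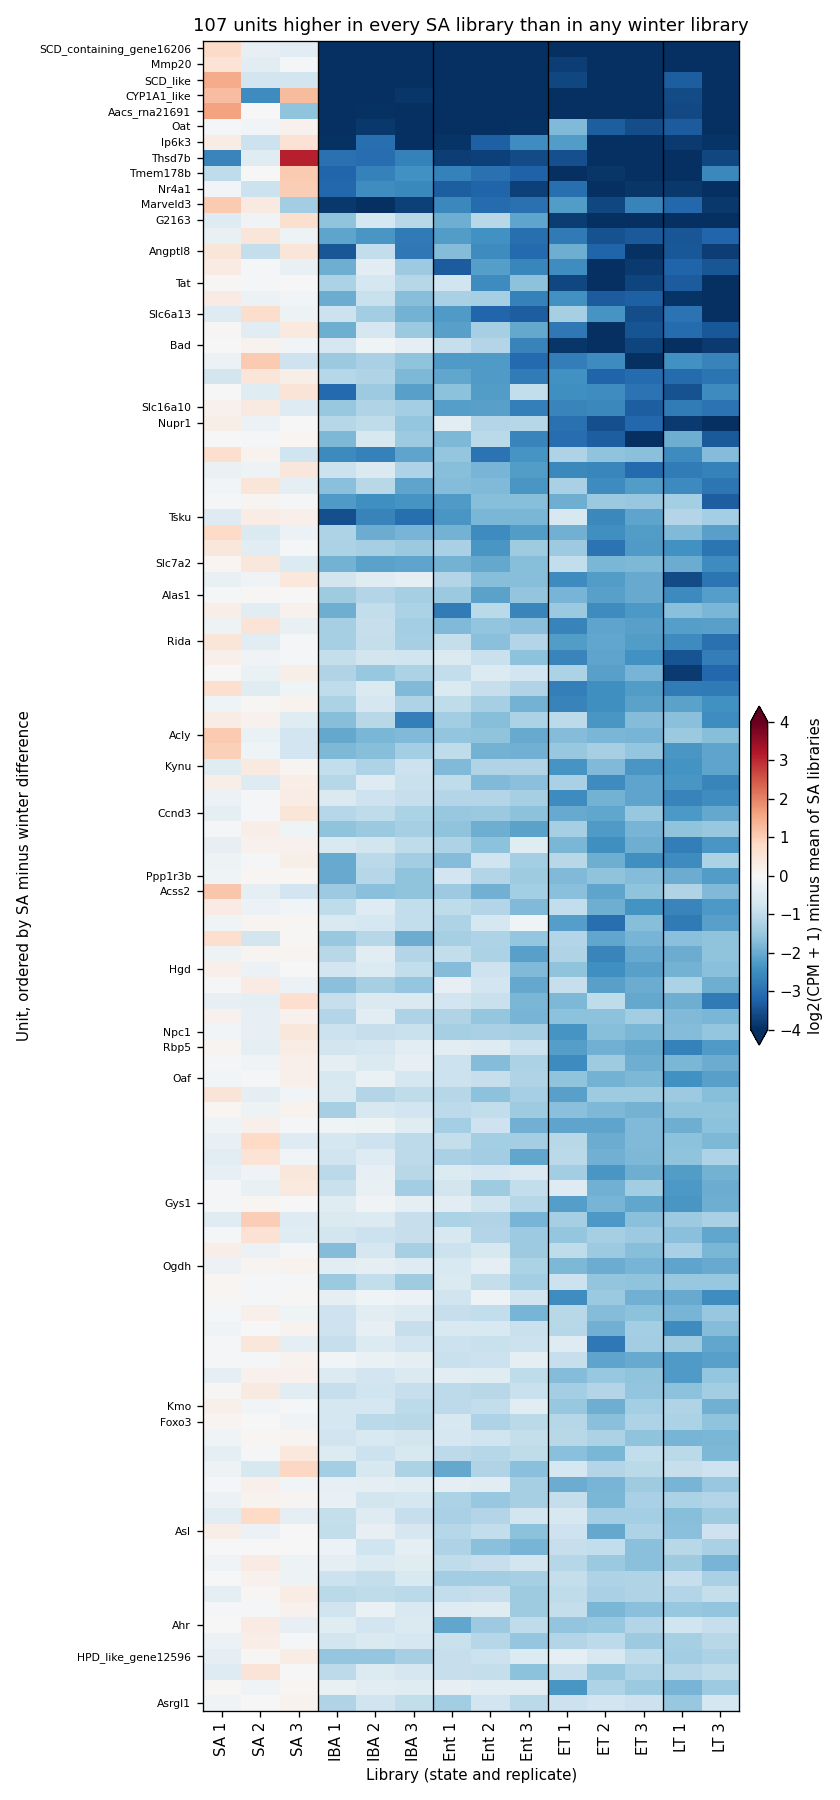
Each row is 1 of the 107 units and each column 1 of the 14 libraries; colour gives log2(CPM + 1) minus the mean of the 3 SA libraries, and values beyond 4 are drawn at the end of the scale. The rows are ordered from the largest difference, 6.64 (SCD_containing_gene16206), to the smallest, 1.01 (Asrgl1), and some of the units named in the text are labelled. The top rows are dark in every winter library, and most rows further down are palest in IBA and darkest in ET and LT.

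The SA to IBA step alone set a part of the list apart. SA exceeded IBA by 1 or more on the log2 scale in 55 units and by 2 or more in 18, but by less than 1 in 52 and by less than 0.5 in 11. As a ratio of mean CPM, SA over IBA ran from 1.19 to 102 with a median of 2.08, and SA over LT from 1.84 to 67.0 with a median of 4.62. The gap between the lowest SA library and the highest winter library was small for many units. Its median was 0.32 on the log2 scale, 13 units had a gap of 1 or more, and 22 had a gap below 0.1. The SA libraries also differed among themselves, with a median SD of 0.36 over the 107 units against 0.25 over all single-gene units. In 6 units they spanned more than 4-fold on the log2(CPM + 1) scale, and in 76 less than 2-fold.

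Fatty acid desaturation and cytosolic acetyl-CoA are represented by 5 units, 3 of them among the 5 largest differences. Stearoyl-CoA desaturase (SCD) puts the double bond into saturated fatty acids, the step before they are stored as triglyceride. SCD_containing_gene16206, on chromosome 1 of the HiC_Itri_2 assembly (33657946 to 33672214, plus strand), had 1365, 630 and 588 CPM in the 3 SA libraries. In IBA it had 6.16, 5.14 and 14.1 CPM, in Ent 2.99, 8.19 and 10.4, in ET 12.8, 2.49 and 4.12, and in LT 22.6 and 3.14. The lowest SA library was 26.1 times the highest winter library, and the mean was 102 times higher in SA than in IBA.

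SCD_like, the other SCD unit of the list (chromosome 1, 33733397 to 33745897, minus strand), had 480, 104 and 103 CPM in SA and 1.04 to 16.6 in winter, with a median of 5.67. In both SCD units LT replicate 1 was the highest winter library. A further SCD unit, SCD_containing_gene16210, is not on the list, since its lowest SA library (47.2 CPM) lay just under its highest winter library (48.1 CPM, ET replicate 1). The SCD copies resemble each other. As only uniquely aligned reads were counted, reads shared by the copies would be missing, and the level of each copy is uncertain.

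Acly cuts citrate into cytosolic acetyl-CoA, the building block of fatty acids and cholesterol. It had 571, 229 and 161 CPM in SA, and its winter libraries lay between 66.4 and 97.6. Acss2, which makes acetyl-CoA from acetate, had 723, 263 and 199 CPM in SA and 77.2 to 146 in winter. Aacs_rna21691, acetoacetyl-CoA synthetase, returns the ketone body acetoacetate to lipid synthesis in the cytosol, and had 485, 157 and 51.5 CPM in SA against 2.82 to 12 in winter. In all 5 of these units SA replicate 1 was the highest SA library. It was the highest in 29 of the 107 units, replicate 2 in 36 and replicate 3 in 42, and as the only SA library of its season its animal and its season cannot be told apart.

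Within winter the libraries of these 5 units varied to different extents. They ran from 2.49 to 22.6 CPM in SCD_containing_gene16206, from 1.04 to 16.6 in SCD_like and from 66.4 to 97.6 in Acly. From IBA to LT the edgeR log2 fold change was 0.48 (SE 0.82, adjusted p = 0.647) for SCD_containing_gene16206, 0.75 (SE 0.94, adjusted p = 0.531) for SCD_like and -0.18 (SE 0.84, adjusted p = 0.877) for Aacs_rna21691. It was 0.19 (SE 0.39, adjusted p = 0.714) for Acly and 0.03 (SE 0.44, adjusted p = 0.955) for Acss2. None passed the threshold, and the standard errors of the SCD and Aacs_rna21691 units, which had few winter counts, leave room for changes of more than 2-fold either way. In each of the 5 the warm IBA libraries already lay in the range of the ET and LT libraries or next to it.

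Angptl8, Npc1 and Acsm2b are further lipid genes of the list, and none of the 3 passed from IBA to LT. Angptl8, a secreted regulator of lipoprotein lipase that feeding induces, had 636, 233 and 636 CPM in SA, 41.2, 228 and 61.6 in IBA, and 32.5 and 42.5 in LT. IBA replicate 2 came just under the lowest SA library, and the IBA and LT libraries overlapped. The fold change from IBA to LT did not pass (-1.64, SE 0.79, edgeR adjusted p = 0.1). Npc1, which carries cholesterol out of lysosomes, had 202, 173 and 300.2 CPM in SA, 116 to 119 in IBA and 65.7 to 73.9 in LT. Its log2 fold change from IBA to LT was -0.85 (SE 0.23, edgeR adjusted p = 0.00774), which does not pass 0.001. Acsm2b, a mitochondrial acyl-CoA synthetase for medium-chain acids, had 160 to 424 CPM in SA and 62.0 to 121 in winter (log2 fold change from IBA to LT -0.23, edgeR adjusted p = 0.641).

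Tsku had the opposite order. It encodes tsukushi, a protein secreted by the liver, and had 164, 289 and 273 CPM in SA, 19.5, 35.8 and 28.1 in IBA, 46.1, 66 and 65.3 in Ent, 150, 38.2 and 53.3 in ET, and 104 and 91.3 in LT. Every LT library was above every IBA library. The log2 fold change from IBA to LT was 1.72 (SE 0.47, edgeR adjusted p = 0.00965), which does not pass 0.001 but is the only positive one of the 107 units that reaches 1.

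Amino acid breakdown was represented by some but not all steps of its routes. Of the tyrosine route, 3 units are on the list: Tat (tyrosine transamination), HPD_like_gene12596 (4-hydroxyphenylpyruvate dioxygenase) and Hgd (homogentisate dioxygenase). Tat had 2510, 2363 and 2424 CPM in SA, the narrowest spread of the 3, then 1020, 1495 and 1101 in IBA, 1400, 423 and 782 in Ent, 195, 106 and 189 in ET, and 239 and 102 in LT. Hgd had 727 to 983 CPM in SA, 427 to 582 in IBA and 227 and 266 in LT. The units of the next steps, Gstz1 (maleylacetoacetate isomerase) and Fah (fumarylacetoacetase), are not on the list, with SA minus winter differences of -0.38 and -0.14.

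Tat fell by 2.91 on the log2 scale from IBA to LT (SE 0.52, edgeR adjusted p = 0.000685). This call held in 11 of 22 alternatives. It was lost with season as a covariate, with the winter libraries alone and without any 1 of the IBA or LT replicates. Leaving out SA replicate 1, SA replicate 3, Ent replicate 3 or ET replicate 3 also lost it. Hgd had a log2 fold change of -1.12 (SE 0.31, adjusted p = 0.0096) and HPD_like_gene12596 of 0.04 (SE 0.22, adjusted p = 0.883), neither of which passed. HPD_like_gene12596 was lowest in IBA, at 226 to 265 CPM, against 518 to 822 in SA and 328 to 509 in ET, and its highest winter library (509 CPM) lay just under its lowest SA library (518 CPM). The differences between the courses of these genes were not tested.

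In the kynurenine route of tryptophan breakdown, Kmo, Kynu and the aminotransferase Kyat3 are on the list. Haao, a later step of that route, is not, with a difference of -0.40. Gstz1, Fah and Haao were named after their values were seen. Kynu had 651, 1155 and 983 CPM in SA, 453, 386 and 501 in IBA and 171 and 209 in LT. Kmo had 300 to 373 CPM in SA and 83.0 to 243 in winter, and Kyat3 102 to 209 in SA and 17.6 to 86.4 in winter. None of the 3 passed 0.001 from IBA to LT, Kynu coming closest (log2 fold change -1.33, SE 0.26, edgeR adjusted p = 0.00116).

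Oat, ornithine aminotransferase, links ornithine to proline and glutamate, and had the largest difference of the units on the amino acid list. Its SA libraries had 175, 171 and 207 CPM, its IBA libraries 8.03, 11.7 and 7.38, its Ent libraries 8.05, 9.77 and 10.8, its ET libraries 53.4, 17.8 and 14.8, and its LT libraries 17.5 and 10.5. The mean was 20.4 times higher in SA than in IBA. Its log2 fold change from IBA to LT was 0.54 and did not pass (SE 0.49, edgeR adjusted p = 0.379), and ET replicate 1 stood above the other winter libraries.

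Asl of the urea cycle had 97.5 to 136 CPM in SA and 27.2 to 92.5 in winter. Rida, which clears reactive imines left by amino acid enzymes, had 53.3 to 102 CPM in SA, 28.3 to 37.0 in IBA, and 11.7 and 8.31 in LT. Carriers of amino acids and related solutes belonged to the list as well. Slc7a2, a carrier of arginine, lysine and ornithine, had 2006, 2592 and 1279 CPM in SA and 325 to 949 in winter. Slc16a10, a carrier of aromatic amino acids, had 460, 516 and 280 CPM in SA, 142, 175 and 158 in IBA and 57.7 and 51.3 in LT, and fell by 1.64 from IBA to LT (SE 0.29, edgeR adjusted p = 0.000635). The call for Slc16a10 held in 15 of 22 alternatives. It was lost with season as a covariate, without Ent replicate 2 and without any 1 of the IBA or LT replicates. Slc6a12 and Slc6a13, neighbouring carriers of betaine, taurine and GABA, had 128 to 217 and 41.5 to 96.9 CPM in SA and reached at most 128 and 32.1 in winter, so that IBA replicate 2 all but met the lowest SA library of Slc6a12.

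Detoxification and heme synthesis are represented by CYP1A1_like, Ahr, Alas1 and SULT2A1_containing. CYP1A1_like, a cytochrome P450 of the family that oxidises aromatic compounds, had 144, 9.69 and 147 CPM in the SA libraries. In winter it had a median of 1.89 CPM and at most 4.14 (LT replicate 1), and ET replicate 2 held 0 counts, which allows up to 0.623 CPM (counting error only). SA replicate 2 was thus nearer to the winter libraries than to the other SA libraries, 2.34 times above the highest winter library. Ahr, the receptor that switches CYP1A1 on, had 170, 211 and 133 CPM in SA, 99.5 to 120 in IBA, 39.1 to 83.2 in Ent, and 97.1 and 88.8 in LT. Its log2 fold change from IBA to LT did not pass (-0.35, SE 0.27, edgeR adjusted p = 0.29).

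Alas1 makes the first intermediate of heme and limits its synthesis. Its SA libraries, at 911, 965 and 919 CPM, were close together, as were those of IBA at 345, 412 and 369. Ent had 331, 211 and 314 CPM, ET 255, 204 and 230, and LT 160 and 200, so each of SA, IBA and LT was apart from the others. From IBA to LT Alas1 fell by 1.16 (SE 0.20, edgeR adjusted p = 0.000597). The call held in 12 of 22 alternatives. It was lost with season as a covariate, with uniquely mapped reads, with the winter libraries alone and with the replicate number as a block. Leaving out ET replicate 3 or any 1 of the IBA or LT replicates also lost it. SULT2A1_containing, a sulfotransferase of steroids and bile acids, had 47.9 to 60.9 CPM in SA, 26.8 to 31.5 in IBA and 3.99 and 6.90 in LT, and fell by 2.54 (SE 0.34, adjusted p = 0.000102), a call lost only without LT replicate 1 among the 22.

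**Figure D2:**
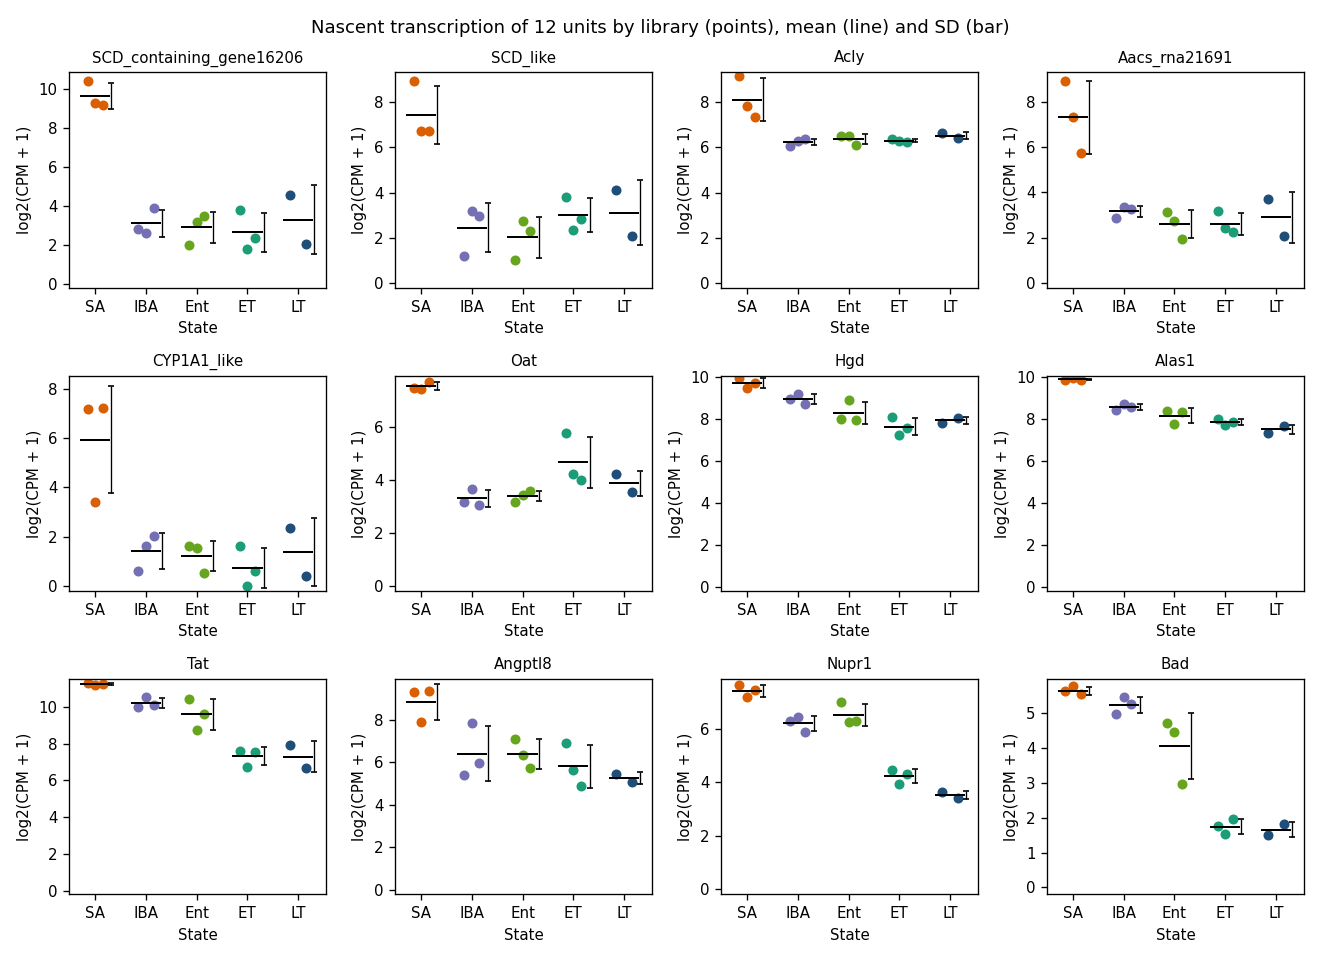
Points give log2(CPM + 1) of each library of 12 units by state, with the mean of the state as a line and its SD as a bar (n = 3, and 2 in LT). SCD_containing_gene16206, SCD_like, Aacs_rna21691 and CYP1A1_like have overlapping points across the winter states, and the LT points of Acly lie slightly above its IBA and ET points. Alas1 steps down, and Tat, Nupr1 and Bad are far lower in ET and LT than in IBA.

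Among glycogen and energy genes, Ppp1r3b, which brings protein phosphatase 1 to glycogen, had 825, 983 and 980 CPM in SA and 195 to 550 in winter. Gys1, the glycogen synthase of tissues other than liver, had 56.1 to 63.5 CPM in SA and 42.0 to 54.5 in IBA, but 11 and 14.7 in LT. Ogdh, a subunit of the 2-oxoglutarate dehydrogenase of the citric acid cycle, had 456 to 585 CPM in SA, 374 to 411 in IBA and 124 and 132 in LT. For both, the SA and IBA values lay close and the main step was within winter.

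Regulators on the list included Nr4a1, an orphan nuclear receptor induced by hormones, with 74.1, 43.9 and 162 CPM in SA and 3.32 to 13.8 in winter. Foxo3, a transcription factor restrained by insulin, had 1713, 1625 and 1459 CPM in SA and 503 to 1020 in winter. Ccnd3, cyclin D3, had 63.8, 80.5 and 118 CPM in SA, 34.7 to 41.1 in IBA, and 16.4 and 19.9 in LT. Ip6k3, a kinase of inositol hexakisphosphate, had 123, 55.7 and 150 CPM in SA and 2.91 to 20.8 in winter. Nupr1, a small stress-induced chromatin protein, had 203, 148 and 176 CPM in SA, 78.7, 85.9 and 59.2 in IBA, 129, 76.0 and 77.9 in Ent, 20.9, 14.3 and 18.9 in ET, and 11.4 and 9.73 in LT. Bad, a member of the BCL2 family that promotes cell death, had 48.5, 53.9 and 45.8 CPM in SA, 30.8, 43.2 and 37.7 in IBA, 25.5, 21.1 and 6.82 in Ent, 2.37, 1.87 and 2.92 in ET, and 1.84 and 2.51 in LT.

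Several of the largest differences were in genes with no textbook role in hepatocytes. Mmp20, the metalloprotease of tooth enamel, had 165, 81.0 and 106 CPM in SA and 0.471 to 7.27 in winter, so its lowest SA library was 11.1 times its highest winter library. Thsd7b, the longest unit of the list at 809578 nt, had 20, 91.5 and 1121 CPM in SA, the widest spread of the list, and 3.26 to 19.0 in winter. Tmem178b had 78.8, 161 and 332 CPM in SA and at most 29.1 in winter, and Marveld3, a tight junction protein, 278, 171 and 50.5 CPM in SA and at most 27.9 in winter. In Thsd7b and Tmem178b replicate 3 was the highest SA library and in Marveld3 replicate 1, so these differences rest on SA animals of unequal level. PDZRN3_like, Hhipl1, Nsg2, Caln1 and Slc6a13 complete the 20 largest with G2163 and the units named above, at differences of 2.51 to 2.97 on the log2(CPM + 1) scale.

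Of the 107 units, 17 carry an identifier in place of a gene symbol, with differences of 1.11 to 2.97. The largest was G2163 (chromosome 1, 128156504 to 128173029, minus strand), with 59.3, 77.5 and 135 CPM in SA, 27.0, 52.2 and 38.8 in IBA, and 4.45 and 1.10 in LT.

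Gene lists of liver functions held the 107 units as follows, with no test of the shares. Of 32 single-gene units for amino acid breakdown and the urea cycle, 8 were among the 107 (25%), as were 4 of 24 for fatty acid and triglyceride synthesis (16.7%), 3 of 44 for drug, steroid and bile acid metabolism (6.82%), 1 of 15 for the growth hormone and steroid axis (6.67%), 1 of 11 for cholesterol (9.09%) and 1 of 42 for plasma proteins (2.38%). None of 14 glycolytic, 9 gluconeogenic and glycogen, 10 fatty acid oxidation and fasting or 8 clock units was. The glycogen list does not hold Gys1 and Ppp1r3b, which are among the 107. Ccnd3 was 1 of the 2 cell cycle units. The median difference between SA and winter was 0.86 over the amino acid units, 0.78 over the fatty acid units, 0.80 over the cholesterol units and -0.07 over the fatty acid oxidation units, beside -0.09 over all single-gene units, of which 2047 of 4705 were above 0.

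**Figure D3:**
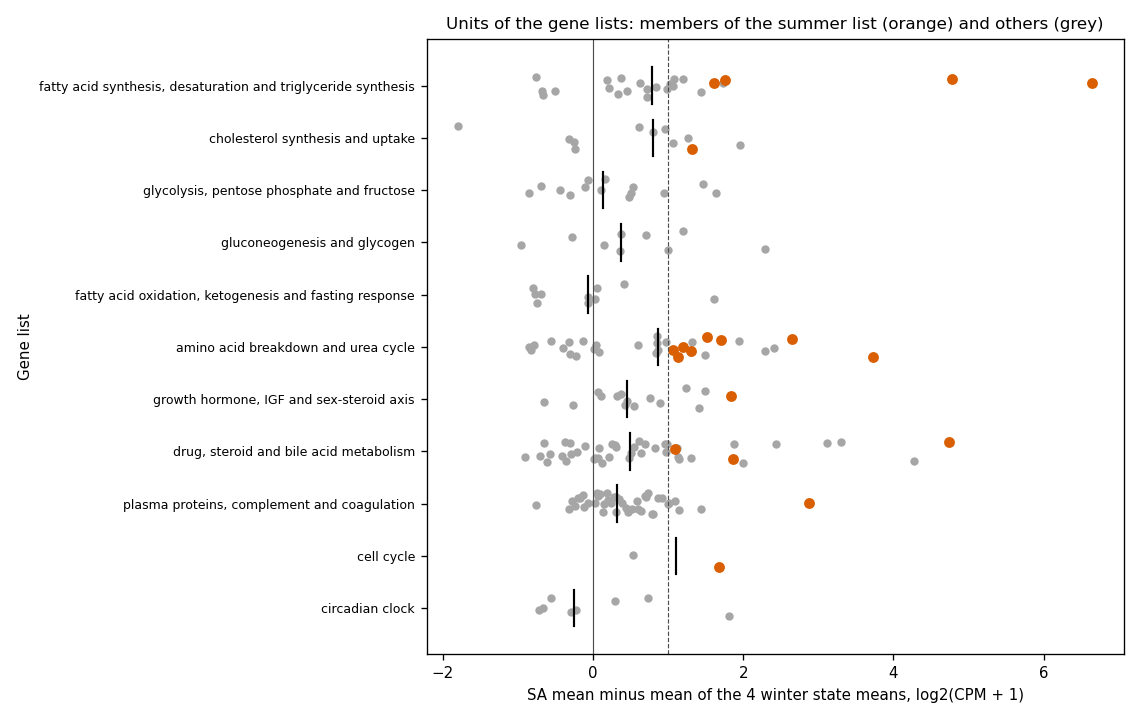
Each point is a single-gene unit of 1 of 11 gene lists, placed by its SA mean minus the mean of the 4 winter state means on the log2(CPM + 1) scale; orange points are on the list of 107, grey points are not, black bars are medians, and the dashed line is the minimum difference of 1. Orange points are most numerous among amino acid units (8 of 32) and fatty acid units (4 of 24), and grey points right of the dashed line failed because a winter library overlapped SA.

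Of the units on these gene lists with a difference of 1 or more, 40 of 59 are not among the 107, because at least 1 winter library reached the SA range. Fasn, fatty acid synthase, had 876, 651 and 479 CPM in SA and 78.7 to 167 in IBA, but 634 in ET replicate 1. Ass1 and Cps1 of the urea cycle also overlapped, Ass1 through ET replicate 1 (2295 CPM against a lowest SA library of 1310) and Cps1 through IBA replicate 1 (3825 against 2503). CYP7A1, the rate-limiting enzyme of bile acid synthesis, had 126, 7.00 and 149 CPM in SA and 10.1 to 13.5 in IBA, so SA replicate 2, which was also low for CYP1A1_like, kept it off the list. These 4 were chosen for mention after their values were seen.

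The limits of the rule can be seen in the units nearest to it. Just inside the minimum difference were Asrgl1 (1.01), Alg2 (1.04), Traf7 (1.06) and HPD_like_gene12596 (1.06). Pbx3 (0.98), Nags (0.97), Itga5 (0.97) and Tnfrsf1a (0.97) also had every SA library above every winter library and lay just outside. Nags, which makes the activator of the urea cycle, had a lowest SA library of 217 CPM and a highest winter library of 189.9 CPM.

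By position, 18 of the 107 units formed 9 pairs no more than 100 kb apart, and in 6 pairs no other unit of the table lay between. Slc6a13 and Slc6a12 follow each other on the same strand of chromosome 4 at 4.0 kb, G34581 and G34589 on chromosome 7 at 2.2 kb, and Tmem123 and Mmp20 on chromosome 3 at 81.1 kb. Tat and Marveld3 (chromosome 16, 34.6 kb), Lhpp and Oat (chromosome 1, 29.6 kb) and HPD_like_gene12596 and LOC106145023 (chromosome 2, 18.4 kb) start away from each other. The 2 SCD units end toward each other at 61.2 kb, with a merged unit between them whose difference is 1.04, just past the minimum. Bad and Macrod1 (84.9 kb) and Cnpy3 and Klc4 (91.3 kb) are on the same strand with other units between. How many pairs other lists of this size would hold was not examined.

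On the opposite strand, 14 of the 107 units overlapped another unit over 1383 to 30079 nt. The opposite unit had a difference of 1 or more in 1 case (Plcb3 beside Bad, 1.13) and below 0 in 6, among them Gss beside Acss2 (-0.15) and RMC1 beside Npc1 (-0.15). The reads are strand-specific, but whether the counting used the strand is not given in the sources used here, so reads of such pairs may not be told apart. The median length of the 107 units was 24840 nt, against 36217 nt over all single-gene units, and the median of their mean count per library 287, against 449, neither of which was tested. They lie on 17 of the 23 chromosomes and scaffolds of the table, 55 on the plus and 52 on the minus strand.

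Within winter, 26 of the 107 units (24.3%) differed among IBA, Ent, ET and LT at an adjusted p of at most 0.001, beside 20.1% of all single-gene units, by the quasi-likelihood F test of edgeR, adjusted after Benjamini and Hochberg over all 6324 units. This share is near the background and is no result about the list. From IBA to LT, 22 of the 107 fell (20.6%) and 0 rose, whereas over all single-gene units 8.18% fell and 9.46% rose. The median log2 fold change of the 107 units was -1.11 and that of all single-gene units -0.09, and 59 of the 107 (55.1%) were at -1 or lower against 17.2% of all. The rule bears on this direction. Its winter mean includes ET and LT, so a unit that was low in ET and LT reached the minimum difference more easily, and the counts are not independent of the selection.

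The number of calls moved with single libraries, and so did that over all single-gene units. Without IBA replicate 1, 14 of the 107 units fell from IBA to LT, and without IBA replicate 2 it was 12. With 1 LT library left, the median log2 fold change of the 107 units was -1.20 without LT replicate 1 and -1.11 without LT replicate 3. That of all single-gene units was -0.09 in each of these fits. With the collection season as a covariate and the ET libraries left out, 6 fell (Bad, Nupr1, SULT2A1_containing, Eva1a, Hhipl1 and Cfd), whereas DESeq2 called 43, of which 42 fell and Tsku rose. Over all single-gene units, the 385 that fell became 212 without IBA replicate 1, 216 without IBA replicate 2 and 98 with season as a covariate. DESeq2 called 766 of them lower and 749 higher. Among all 4 winter states the count of 26 went to 15, 14 and 16 without IBA replicate 1, 2 or 3. The 944 such calls over all single-gene units went to 513, 518 and 523 in the same fits. With uniquely mapped reads as the library size, the median of all single-gene units from IBA to LT moved from -0.09 to 0.10, and 69.8% of all calls were higher in LT against 53.6% with TMM. The median of the 107 units was 1.03 below that of all single-gene units under both scalings.

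The 10 smallest p-values from IBA to LT belonged to Oaf, Nupr1, ENSSTOG00000034836, Rbp5, Bad, Gys1, Cnpy3, Ogdh, SULT2A1_containing and Tefm. Bad had the largest fall, -4.19 (SE 0.50, adjusted p = 4.46e-05), from 37.2 ± 6.20 CPM in IBA to 2.18 ± 0.473 in LT. Nupr1 fell by 2.92 (SE 0.32, adjusted p = 2.65e-05) and Oaf by 1.89 (SE 0.19, adjusted p = 1.90e-05), from 194 ± 34.2 CPM to 56.2 ± 7.46. Rbp5, a retinol-binding protein, fell by 2.00 (SE 0.23, adjusted p = 3.90e-05), and Gys1 by 1.98 (SE 0.24, adjusted p = 4.49e-05). Ogdh fell by 1.72 (SE 0.21, adjusted p = 5.69e-05), Cnpy3, a chaperone of Toll-like receptors, by 2.07 (SE 0.25, adjusted p = 4.98e-05), and Tefm, a mitochondrial transcription factor, by 2.23 (SE 0.32, adjusted p = 0.000138). For each of these units every LT library lay below every IBA library (edgeR's quasi-likelihood test, n = 3 IBA and 2 LT libraries). With season as a covariate, 3 of the 10 calls (Nupr1, Bad and SULT2A1_containing) held. Without LT replicate 1 those of Nupr1 and Oaf did.

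Of the 55 units with SA at least 1 above IBA on the log2 scale, 7 fell from IBA to LT, and of the 52 others 15 did. The rule ties these counts together, since a unit with a small SA to IBA step needs low ET and LT values to reach the minimum difference, and both steps share the IBA libraries. Among the 20 largest differences, 4 fell from IBA to LT: G2163, Tat, Hhipl1 and Bad. In 22 units SA exceeded IBA by 1 or more while the log2 fold change from IBA to LT was within 0.5 of 0, as in SCD_containing_gene16206, Aacs_rna21691, Acly, Acss2, CYP1A1_like, Mmp20, Ip6k3 and Slc7a2. A p above the threshold does not show that these units stayed level.

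**Figure D4:**
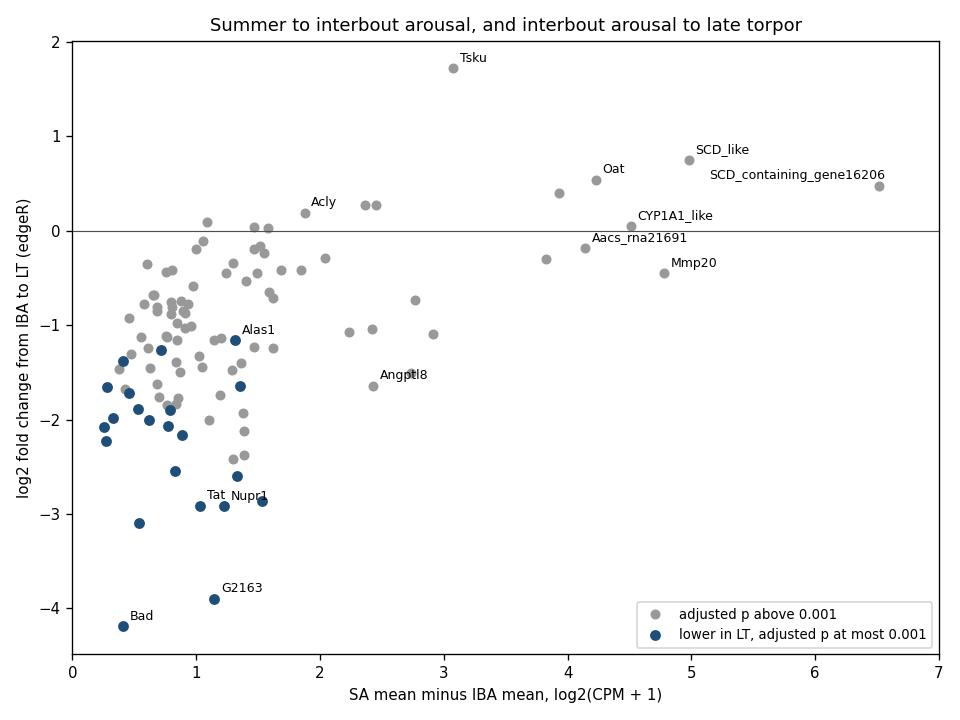
Each point is 1 of the 107 units, placed by its SA mean minus its IBA mean on the log2(CPM + 1) scale (horizontal) and its edgeR log2 fold change from IBA to LT (vertical); blue points fell from IBA to LT at an adjusted p of at most 0.001. The 22 blue points lie at SA to IBA steps below 2, and units with steps above 3.5, such as SCD_containing_gene16206, SCD_like, Oat and CYP1A1_like, lie within 1 of a fold change of 0. Both axes use the IBA libraries.

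Neighbouring winter states gave few calls. From IBA to Ent, 0 of the 107 units passed edgeR's threshold, beside 0.0425% of all single-gene units. At an unadjusted p of at most 0.05, 28 did, beside 1570 of all 4705 single-gene units. DESeq2 called 3 (CUNH1orf115, LOC106145120 and Slc16a10, all lower in Ent), beside 329 of 4703. From Ent to ET, 5 fell and 0 rose, beside 1.17% and 1.13% of all single-gene units. These were Nupr1 (log2 fold change -2.44, SE 0.26, adjusted p = 0.000272), Rbp5 (-1.54, SE 0.20, adjusted p = 0.000447), Bad (-2.93, SE 0.41, adjusted p = 0.000706), Gys1 (-1.40, SE 0.20, adjusted p = 0.000763) and Ogdh (-1.23, SE 0.18, adjusted p = 0.000833).

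Each of the 5 was lower in every ET library than in every Ent library. The rule's winter mean includes ET, so low ET values helped a unit onto the list. These 5 calls are therefore not independent of the selection. The count fell to 0 without Ent replicate 1 or without any of the ET replicates. It fell to 1 without Ent replicate 2 or IBA replicate 3, and to 2 without IBA replicate 1 or 2 or SA replicate 3. Calls over all single-gene units fell as well, from 108 to 0 without Ent replicate 1 and to 7 without Ent replicate 2. They were 6, 0 and 13 without ET replicate 1, 2 or 3. Without IBA replicate 1, 2 or 3 they were 55, 49 and 37, and without SA replicate 3 they were 87. DESeq2 called 20, all lower, beside 326 lower and 397 higher of 4703 single-gene units. ET also differs from Ent in its season, and the 2 cannot be told apart. From ET to LT, 0 of the 107 passed, beside 0% of all single-gene units. At an unadjusted p of at most 0.05, 13 did, beside 436 of 4705. DESeq2 called 1 (LOC106145023, lower in LT), beside 33 of 4703.

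Differences were also taken within a collection season. In the first season (1 SA, 2 Ent and 2 LT libraries) 94 of the 107 units had an SA value at least 1 above the mean of the other state means, with a median difference of 1.58, and in the third season (2 SA, 3 IBA and 1 Ent) 81 had, with a median of 1.28. In both seasons 70 did. The lowest difference was 0.50 in the first and 0.36 in the third season. That SA lay above winter within each season is fixed by the rule.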

How the data were processed

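Nascent RNA from nuclei of 14 frozen livers was sequenced by GRO-seq. The authors trimmed the reads with cutadapt, aligned them with BWA to the HiC_Itri_2 assembly, extended gene annotations 3′ with fstitch where that reached further, merged overlapping genes, removed the start of each gene body and counted uniquely aligned reads with featureCounts. Reads that map equally well to near-identical copies are therefore not counted. The deposited values are these raw counts per unit and library, not normalized, with the unit's coordinates and length. The authors left out LT replicate 2, which is not analysed here. Of the per-sample columns, 0 were left unused. Seasons were taken from the study's animal records. Each library is from 1 animal.

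CPM used the column sum over all 6324 units and a pseudocount of 1. The members and gene lists were chosen with earlier results of these data known. Named are the members on a gene list, the 20 largest differences, the members called within winter (the 10 smallest p where more than 10 passed), 4 units just inside and 4 just outside the minimum difference, and members within 100 kb of each other. Further members with a known role (Npc1, Acsm2b, Tsku, Kyat3, Rida, Slc7a2, Slc16a10, Ppp1r3b and Foxo3) were named after their values were seen. Some members that these choices cover are not reported here by name. Winter states were compared in edgeR 4.0.16 (R 4.3.3) by quasi-likelihood tests with TMM normalization, fitted to all 14 libraries and 6324 units without a filter, with Benjamini-Hochberg adjustment and a threshold of 0.001. Fold changes are from that fit, and the steps were tested on simulated data. The alternatives tried were limma-voom (limma 3.58.1), DESeq2 1.42.0, RLE normalization, uniquely mapped reads as library size, a mean count of at least 100, an adjusted p of 0.05, the winter libraries alone, the replicate number as a block, the season as a covariate, other scalings and limits of the rule, and each library left out in turn. RefSeq names of another assembly matched 83 of the 107 members. Python 3.11.15 with pandas 2.3.3 and matplotlib 3.10.9 was used for the other steps.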

Additional observations from a re-analysis of the deposited data

How the results depend on the processing

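The list held 107 units. It held 105 with library sizes from single-gene units (102 shared), 126 with TMM (106 shared), 101 with uniquely mapped reads (98 shared), 107 with a pseudocount of 0.5, and 105 with a mean count of at least 100. It went to 60 with a minimum difference of 1.5, to 169 in the third season alone (81 shared) and to 386 in the first alone (94 shared), where fewer winter libraries had to be exceeded. Leaving out each library in turn gave 106 to 169, with 163 without SA replicate 1 and 169 without SA replicate 2, since fewer SA libraries had to be high.

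Members called among the winter states, 26 in all, were 49 with DESeq2 and 64 at an adjusted p of 0.05, and 14 to 26 with each library left out. Over all single-gene units, calls among the winter states went from 944 to 1966 with DESeq2 and 2564 at 0.05. From IBA to LT, 22 became 43, 64 and, with season as a covariate, 6. The calls over all single-gene units went from 830 to 1515, 2386 and 142 in the same settings. Leaving out each library gave 2 to 26. From IBA to Ent, 0 became 3 with DESeq2 and 14 at 0.05, and was 0 with every library left out. From Ent to ET, 5 became 20 with DESeq2, 3 with limma-voom, 37 at 0.05 and 2 with the winter libraries alone, with 0 to 6 when libraries were left out. From ET to LT, 0 became 1 with DESeq2 and 1 at 0.05, and was 0 with every library left out. With 1 LT library the spread of LT is assumed to be that of the other states. Over all single-gene units, calls from IBA to Ent went from 2 to 329 with DESeq2 and 785 at 0.05. Those from Ent to ET went from 108 to 723 with DESeq2, 103 with limma-voom, 1376 at 0.05 and 143 with the winter libraries alone. Those from ET to LT went from 0 to 33 with DESeq2 and 16 at 0.05. The cause of the differences between tools was not tested.

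The median log2 fold change of members from IBA to LT, -1.11, was -0.93 with uniquely mapped reads and -1.20 to -0.99 with each library left out. With the replicate number as a block, members called from Ent to ET went from 5 to 1, and those from IBA to LT from 22 to 20. The numbers do not pair the libraries, since 26 pairs of same-numbered libraries correlated at -0.27 to 0.26 with a median of 0.04, and 5 of 14 libraries correlated best with their own number. For the 22 members that fell from IBA to LT, no fold change turned sign under any of 22 alternatives at the threshold of 0.001. Of 484 values, 116 lost the threshold, 20 of them without LT replicate 1 and 17 with season as a covariate. Few winter counts limit the SCD_like and CYP1A1_like values.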

Other observations

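Units that the authors merged because genes overlapped were not eligible for the list, but 23 of the 1619 merged units (1.42%) met the same rule, against 107 of 4705 single-gene units (2.27%). The counts of a merged unit cannot be divided among its genes. Among the 23 are units that contain Dgat2, which makes triglyceride, Lipg, a lipase, Etnppl, which breaks down phosphoethanolamine, and Aacs_rna21691_alt beside a pseudogene of the same enzyme. These names were picked after the values were seen. The mirrored rule, with every SA library below every winter library and a difference of at least 1, selected 44 single-gene units (0.935%), and 198 (4.21%) had every SA library below every winter library without the minimum difference.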
